A study of Meloidogyne incognita with 75 samples.

Results

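A set of 200 transcripts of Meloidogyne incognita that stood far higher in adult females than in any other stage is described here. Their working name is transcripts switched on in adult females only. They were chosen from the full count table of 45378 transcripts, among the 43359 genes with a single transcript. Levels are given as CPM, a count scaled to 1000000 counts of its library. A transcript was kept where its mean was at least 10 CPM in female and under 10 CPM in J4_female, which left 680. These were ranked by a score, the mean log2(CPM + 1) in female minus the highest such mean among the 7 other stages, and the first 200 were taken. The highest score was 12.01, the median 5.36 and the lowest 3.45, and all 200 were positive, as were 529 of the 680. Because the score uses the level in every stage, the levels in female against the other stages are a description of what was chosen, and no test is made of them.

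The data came from 75 single animals of the southern root-knot nematode, which feeds inside plant roots, each amplified by the low-input Smart-seq2 protocol, which copies messenger RNA from very small samples. The groups were 7 libraries of female, tagged as adult, 8 of J4_female, 8 of J4 with no sex stated, 14 of J4_moulting, 14 of J3, 12 of par_J2, 5 of pre_J2 hatched from eggs in vitro, and 7 of male, which another label calls J4_male. No treatment, strain or age is given in the labels, and stages were set by morphology. Library totals ran from 3265447 to 40174566 counts, and from 6231057 to 40174566 in female. Replicates 7 and 8 of J4 stand among the J3 columns of the deposited tables, and some counts that rest on J4 are also given without them.

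The female of a root-knot nematode settles at a feeding site of enlarged plant cells, swells to a pear shape after its last moult, and stays there for the rest of its life. Its ovaries fill much of the body, it reproduces without fertilisation in this species, and it lays its eggs into a jelly secreted by rectal glands. Adult nematode females are also known for making large amounts of yolk and eggshell proteins. The files do not pair the Mi identifiers with gene names, products or sequences, so no identifier is given a role here and the sex and stage of the animals could not be checked against marker genes.

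Together the 200 transcripts held 13.3 ± 7.11% of all counts in female (SD, n = 7). The lowest female library, replicate 6, gave 2.95% (95% Wilson interval 2.95 to 2.96%), the median library 12.9% and the highest, replicate 1, 26.2% (26.2 to 26.2%). Outside female the same transcripts held at most 0.139% of the counts of any library, in J4 replicate 6 (0.137 to 0.141%). The mean share was 0.0518 ± 0.0374% in J4 (n = 8), 0.0383 ± 0.0281% in J4_female (n = 8), 0.0259 ± 0.0129% in pre_J2 (n = 5) and 0.0223 ± 0.00859% in J4_moulting (n = 14). It was 0.0170 ± 0.00588% in male (n = 7), 0.0134 ± 0.00655% in J3 (n = 14) and 0.00618 ± 0.00349% in par_J2 (n = 12). No library of these stages reached the lowest female library, and among them the lowest J4 library lay above the highest par_J2 library. Fewer cells of a type and less RNA per cell cannot be told apart in whole animals, and a share of counts also falls when other transcripts rise.

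**Figure D1:**
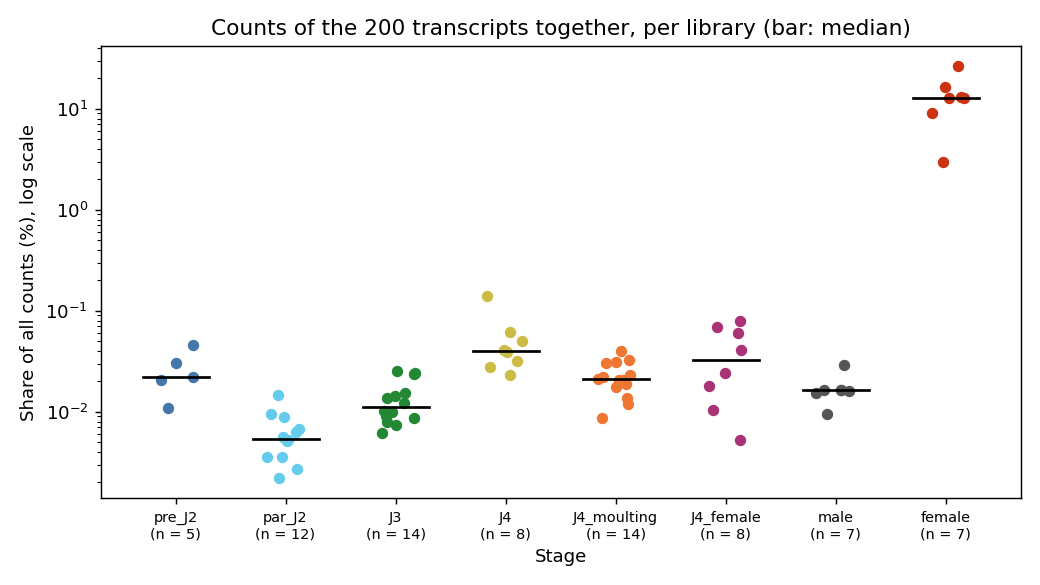
Share of all counts (%, log scale) held by the 200 transcripts together in each of the 75 libraries, by stage, with a bar at the median. The 7 female libraries lie between 2.95 and 26.2%, and every library of the other stages lies at or below 0.139%.

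Every one of the 200 transcripts had a count in all 7 female libraries, which the rule favours by ranking on their mean log2(CPM + 1). For 143 of them the lowest female library, in CPM, stood above the highest of the 68 libraries of the other stages. Of all 45378 transcripts 194, 0.428%, met this, a contrast that the rule itself used. The other 57 overlapped at least 1 library outside female. With female replicates 6 and 7 left out the number without overlap was 174, and with J4 replicate 6 left out it was 147. Leaving out libraries cannot lower this number for any set of transcripts. The share over all transcripts is not given for these settings, so nothing is read from the rise. Mean levels in female ran from 18.3 to 25292 CPM over the 200, with 132 above 100 CPM and 18 above 1000 CPM. CPM is not corrected for transcript length, and lengths were not used here, so these levels are not an order of abundance between transcripts.

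**Figure D2:**
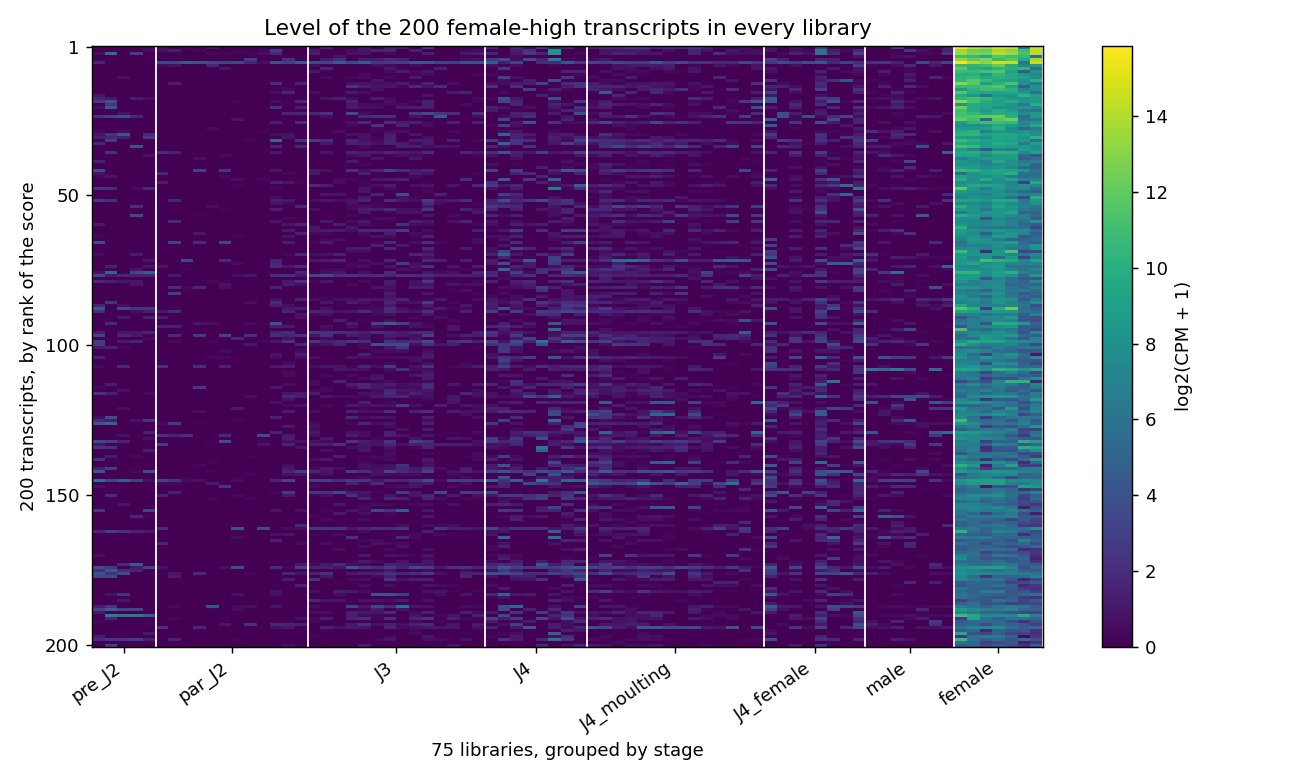
Level of each of the 200 transcripts, as log2(CPM + 1), in each of the 75 libraries, with transcripts in rows by rank of the score and libraries in columns by stage and replicate. The 7 female columns are the brightest block, with every row above 0 in them, and scattered bright cells mark single transcripts in single libraries of other stages.

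The word only does not hold for the list as a whole. All 200 had a count in some library outside female, from 1 library to 62 of the 68, with a median of 23, and 7 had a count in 5 or fewer. For 64 of the 200 every other stage had a mean under 1 CPM, while 19 had a mean of 10 CPM or more in at least 1 other stage. Mi_33473.1 and Mi_34793.1 had counts in the fewest libraries outside female. Mi_33473.1 stood between 1.33 and 58.3 CPM in female, with a median of 10.3 and a mean of 19.4 ± 20.98 CPM (n = 7), and had 6 counts outside female, all in J4_moulting. It had no count in J4_female, where 3 counts over the 8 libraries would be 0.0249 CPM, so its pooled level was at least 690-fold higher in female. Mi_34793.1 stood between 4.98 and 55.2 CPM in female, with a mean of 22.2 ± 19.1 CPM, and had 4 counts outside female, all in male. Against the same floor its pooled level was at least 736-fold higher in female than in J4_female. At the other end, Mi_33446.1 was at 0, 19.3, 75.1, 101 and 105 CPM in the 5 pre_J2 libraries, a mean of 60.1 ± 47.9 CPM. In female it ran from 117 to 1915 CPM with a median of 189, a mean of 608 ± 659 CPM, so that the highest pre_J2 libraries approached the lowest female ones without reaching them. Mi_05601.1 was at 18.3 ± 20.8 CPM in pre_J2 and 25.5 ± 25.6 CPM in J4, where all 8 libraries had a count. Its 7 female libraries lay between 164 and 591 CPM, above every J4 library, the highest of which was at 77.5 CPM.

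The threshold fell within a continuous run of scores. The last members were Mi_33473.1, with a score of 3.57, and Mi_00073.1, with a score of 3.45 at 18.3 ± 9.93 CPM in female. Just outside were Mi_18073.1, with a score of 3.43 at 29.99 ± 15.3 CPM, and Mi_03749.1, with a score of 3.42 at 17.6 ± 10.7 CPM. The ceiling on J4_female kept out 60 single-transcript genes whose score was as high as that of rank 200, and the female minimum kept out 0. A further 12 transcripts of genes with several transcripts would have scored as high.

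The deposited filtered table retained 7 of the 200. That table held 22287 of the 45378 transcripts, 49.1%, and each of them was counted in at least 56 libraries while no transcript left out was counted in more than 55. The 200 were chosen for low levels in the 68 libraries outside female. Mi_01157.1, rank 6 by score, was among the 7 retained, and Mi_28065.1, rank 1, was not. Within that table the 7 held 3.33 ± 2.80% of the counts of female.

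In the last juvenile stage of the female, J4_female, levels were low in most animals and moderate in a few. The 200 transcripts had a median of their stage means of 0.999 CPM there, with 101 under 1 CPM and 23 at 5 CPM or more, against a median of 162 CPM in female. No count was found for 9 of them in any J4_female library. Between 27 and 143 of the 200 had a count in a single J4_female library. Replicates 5, 8 and 1 held the largest shares, at 0.0792, 0.0687 and 0.0597% of their counts, and replicate 4 the smallest, at 0.00520%. These 3 libraries were also the 3 with the fewest counts of the stage, from 5086869 to 11435142, and replicate 4 had the most, 24701667. The part of depth in this was not tested. Replicate 5 held over 10 times the share of replicate 4, and the whole stage lay below the lowest female library.

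**Figure D3:**
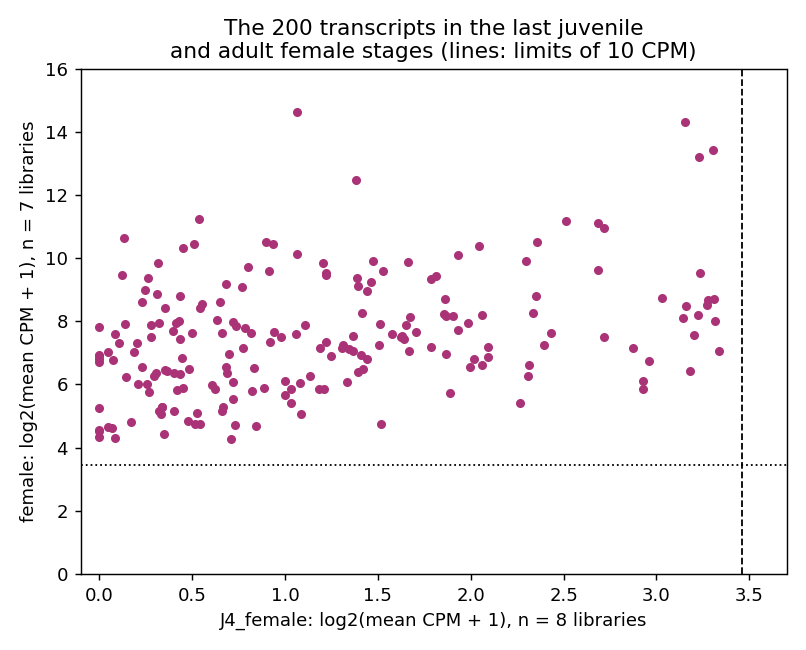
Each point is one of the 200 transcripts, with log2(mean CPM + 1) in J4_female (n = 8 libraries) on the x axis and in female (n = 7) on the y axis. The dashed and dotted lines are the limits of 10 CPM that the rule set on the stages, and 101 of the 200 points lie under 1 CPM in J4_female.

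Mi_27569.1 and Mi_26874.1 had the highest J4_female means. Mi_27569.1 was at 0 in 5 of the 8 J4_female libraries, 7.41 CPM in replicate 3, 18.5 in replicate 8 and 46.96 in replicate 5, a mean of 9.11 ± 16.6 CPM. In female it ran from 2.94 CPM in replicate 6 to 270 CPM, with a median of 165, so the stages overlapped. Mi_26874.1 had counts in 7 of the 8 J4_female libraries, between 0 and 26.0 CPM with a median of 6.84, and stood between 107 and 428 CPM in female with no overlap.

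Outside female the highest mean was most often in one of the 3 stages named J4, J4_female and J4_moulting. By mean log2(CPM + 1), the highest other stage was J4 for 68 of the 200, J4_female for 52, J4_moulting for 31, pre_J2 for 19, male for 18, J3 for 10 and par_J2 for 2. Taking the single highest library outside female in place of the stage mean, it was a J4_female library for 62, a J4 library for 60, J4_moulting for 24, male for 18, pre_J2 for 17, J3 for 12 and par_J2 for 7. With J4 replicates 7 and 8 left out, the highest library was in J4 for 41 and in J4_female for 73, and the highest stage mean was J4 for 70 and J4_female for 48. Of the 200, 101 had no count in any pre_J2 library, 66 none in par_J2, 52 none in male, 10 none in J3, 9 none in J4 and 4 none in J4_moulting. The stages differ in number of libraries and depth, which bears on these counts of absent transcripts.

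Differences between stages other than female were not part of the score, apart from the ceiling on J4_female and the common limit set by the highest stage, so these were tested with edgeR over all transcripts. Calls needed an adjusted p (Benjamini-Hochberg) under 0.05 together with a change of at least 2-fold. Counts of members at an unadjusted p under 0.05, given below, have no share over all transcripts beside them, so nothing is read from them. The limit of 10 CPM that the rule set on J4_female bears on both comparisons with that stage. The usual low-count filter, taken over the libraries of the stages compared, left from 52 to 84 of the 200 in these tests. A member that passes it through 1 stage alone had to differ, so the same test is also given with the filter taken over all 75 libraries, which every member passes. With it all members with a count in the stages compared were tested, which left out between 1 and 3.

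More members were called lower than higher in J4_moulting against J4, and the number rested in large part on 1 animal. With the filter over all libraries, 28 members, 14.1% of those tested, were lower in J4_moulting and 0 were higher by edgeR, against 3.73% lower and 4.08% higher over all 39795 transcripts. The J4 means of these members ran from 0.220 CPM, for Mi_07301.1, to 43.2 CPM, for Mi_03801.1. Their J4_moulting means were at most 0.967 CPM, so some calls lie near 0 CPM in both stages. The median log2 fold change was -1.06 over the members and -0.16 over all transcripts, and without J4 replicate 6 it was -0.82 and -0.09. Over the 75 members that passed the filter in these stages alone, 3 were lower and 0 higher, with 19 at an unadjusted p under 0.05, against 3.41% lower and 5.09% higher, 8.5% in all, of 32417 transcripts. Without J4 replicate 6 the wider test called 11 members lower and 2 higher, 5.53 and 1.01% of those tested, against 2.54 and 3.35% of all transcripts. The narrower test then called 0 lower and 1 higher, against 2.58 and 4.04% of all. With J4 replicates 7 and 8 left out the wider test called 23 lower and 1 higher, 11.6 and 0.503%, against 2.55 and 2.49% of all. DESeq2, with the narrower filter, called 3 lower and 2 higher, 4 and 2.67%, below the 6.55 and 6.66% of all transcripts.

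The 3 members called were Mi_03801.1, Mi_19673.1 and Mi_04192.1. Mi_03801.1 had counts in 3 of 8 J4 libraries, with a median of 0 and 340 CPM in replicate 6, a mean of 43.2 ± 120 CPM. In J4_moulting it ran from 0 to 1.79 CPM, a mean of 0.638 ± 0.538 CPM over 14 libraries. The log2 fold change by edgeR was -6.95 (SE 1.57, adjusted p = 0.00628), and without J4 replicate 6 it turned to 0.20. Mi_19673.1 was at 279 CPM in the same J4 library, with a median of 1.42 over J4 and of 0.719 CPM in J4_moulting, with an edgeR log2 fold change of -6.18 (SE 1.41, adjusted p = 0.00675) that became -0.26 and was not called without that library. For both transcripts J4 replicates 4 and 6 lay above every J4_moulting library and the other 6 overlapped it. Mi_04192.1 was at 5.99 ± 9.92 CPM in J4 and 0.515 ± 0.581 CPM in J4_moulting (edgeR adjusted p = 0.0108).

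Against J4_moulting, more members were called higher than lower in J4_female under the wider filter, and 1 was called under the narrower one. With the filter over all libraries, 23 members, 11.6% of those tested, were higher in J4_female by edgeR and 1, Mi_21530.1, was lower, against 2.58% higher and 2.80% lower over 39798 transcripts, and the median log2 fold change was 0.81 over the members and 2.3e-05 over all. The 23 had J4_female means from 0.241 CPM, for Mi_05210.1, to 8.91 ± 24.7 CPM, for Mi_22561.1. Their J4_moulting means were at most 0.393 CPM, so some of these calls also lie near 0 CPM in both stages. Some of the 23 were very unequal between animals. Mi_22561.1 was at 69.99 CPM in J4_female replicate 6, and Mi_41446.1 had counts in 2 of 8 J4_female libraries, the higher at 31.3 CPM. Mi_41144.1 also had an SD well above its mean in J4_female. Single J4_female libraries were left out with the narrower filter only, so how many of the 23 rest on 1 animal was not tested. With the narrower filter the median log2 fold changes were 0.29 over the members and -0.03 over all. The direction of the members' median was not stable: it was -0.53 by limma-voom, against -0.37 over all, and -0.07 without J4_female replicate 8, against -0.13 over all. Over the 84 members that passed the filter in these stages alone 1 was higher and 0 lower, with 14 at an unadjusted p under 0.05, against 2.46% higher and 3.41% lower, 5.87% in all, of 32251 transcripts. DESeq2, with the narrower filter, called 2 higher and 3 lower, 2.38 and 3.57%, below the 4.28 and 5.80% of all transcripts. This comparison shares its J4_moulting libraries with the one above. The member called was Mi_23672.1, with counts in 7 of 8 J4_female libraries, between 0 and 23.4 CPM with a median of 3.15, and in 7 of 14 J4_moulting libraries, between 0 and 1.74 CPM. Its edgeR log2 fold change was 4.07 (SE 1.14, adjusted p = 0.0326). In 4 of the 8 J4_female libraries it stood above every J4_moulting library, and the others overlapped. Left out in turn, J4_female replicates 1, 6 and 7 each took the narrower count to 0, replicates 2, 4 and 5 took it to 2 higher, and replicate 8 to 2 higher and 1 lower. Over these fits 1.85 to 2.86% of all transcripts were called higher and 2.77 to 3.37% lower. Mi_23672.1 had a log2 fold change of 3.42, 3.91 and 3.85 without replicates 1, 6 and 7 (edgeR adjusted p = 0.0939, 0.0533 and 0.0669).

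Between J4_female and J4 no member and no transcript was called by edgeR, 0% of 28250. Of the 52 members tested 1 had an unadjusted p under 0.05, and 18 of 197 with the wider filter. DESeq2 called 3 transcripts, none of them a member, and limma called 0. In simulated counts the test of these stages recovered 1% of 4-fold and 49% of 16-fold changes. A comparison without calls does not show that the stages were alike.

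In male against J4_moulting the share of members called lower was near that of all transcripts. By edgeR 13 of the 75 members tested, 17.3%, were lower and 3 higher in male, against 16.3% lower and 10.7% higher, 27% in all, of 31948 transcripts. Members of the 13 such as Mi_18047.1, at 0 CPM in male, passed this filter through J4_moulting alone. For these, being lower was set by the filter. With the filter over all libraries 40 of 198, 20.2%, were lower and 15, 7.58%, higher, against 20.2% lower and 9.22% higher of 39763. Mi_39940.1 was not counted in male at all. In J4_moulting it had counts in 13 of 14 libraries, up to 80.1 CPM with a median of 7.78. Against 3 counts over the 7 male libraries it was at least 1166-fold lower in male. Mi_00334.1 also had no male count and stood at 1.60 ± 2.24 CPM in J4_moulting, at least 72.7-fold lower. Both passed the narrower filter through J4_moulting alone, so only the test with the filter over all libraries is given for them. There the edgeR adjusted p was 0.000177 for Mi_39940.1 and 0.00342 for Mi_00334.1.

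The rule for naming also brought up members present in males. Mi_09291.1 was at 42.3 ± 41.7 CPM in male, with a median of 40.7 and libraries from 0 to 114 CPM, and at 652 ± 327 CPM in female, with no overlap between them. In J4_moulting it ran from 0 to 2.16 CPM, and 5 of the 7 male libraries lay above all 14 of that stage, with an edgeR log2 fold change of 6.24 (SE 1.30, adjusted p = 0.00141). Mi_04192.1 was at 4.78 ± 4.32 CPM in male and had the same low level in J4_moulting as given above (edgeR adjusted p = 0.0116). Mi_22184.1, the remaining member called higher, was at 7.99 ± 19.1 CPM in male and 1.02 ± 1.85 CPM in J4_moulting (edgeR adjusted p = 0.0476). Its SD in male was well above its mean, so the level was very unequal between males. Mi_11131.1 was uneven among males, with counts in 4 of 7 libraries, a median of 0.334 CPM and 51.4 CPM in replicate 7.

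Among the 7 adult females the members varied widely. The score uses the mean log2(CPM + 1), which falls with spread at a given mean CPM, so this spread is not independent of the rule. The coefficient of variation over the female libraries had a median of 0.770 over the 200, quartiles of 0.617 and 0.927, a lowest value of 0.354 and a highest of 2.41. Over the 7261 other single-transcript genes of at least 10 CPM in female, not matched to the members for level, the median was 0.416. The highest female library exceeded the lowest by a median of 15.5-fold, by at most 5-fold for 20 members and by over 100-fold for 30. Mi_25234.1 was the most even, between 35.9 and 110 CPM with a median of 61.6. Mi_41446.1 was next, between 125 and 339 CPM with a median of 190. The level of a member thus differed between the 7 females, while a count in each of them is favoured by the rule.

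Replicates 6 and 7 stood lowest for most members. The lowest female level fell in replicate 6 for 75 of the 200, in replicate 7 for another 75, and in replicate 3 for 32. The highest fell in replicate 1 for 69 and in replicate 4 for 49. The median member stood at 44.3 CPM in replicate 6 and 48.9 CPM in replicate 7, against 118 to 206 CPM in the other 5. A level under 1/10 of the median of the other 6 females was found for 32 members in replicate 6, 25 in replicate 7, 18 in replicate 3, 2 in replicate 1 and 0 in replicates 2, 4 and 5. In replicate 6 that is 16% of the members against 0.496% of the 7261 other transcripts, in replicate 7 12.5% against 1.72%, and in replicate 3 9% against 0.441%. Both replicates 6 and 7 were that low for 7 members, replicate 6 without replicate 7 for 25, and replicate 7 without replicate 6 for 18. Of the other transcripts 36 were that low in replicate 6, 125 in replicate 7 and 12 in both. Replicates 6 and 7 had the largest totals of the stage, 35372449 and 40174566 counts, and the part of depth in their low levels was not tested.

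**Figure D4:**
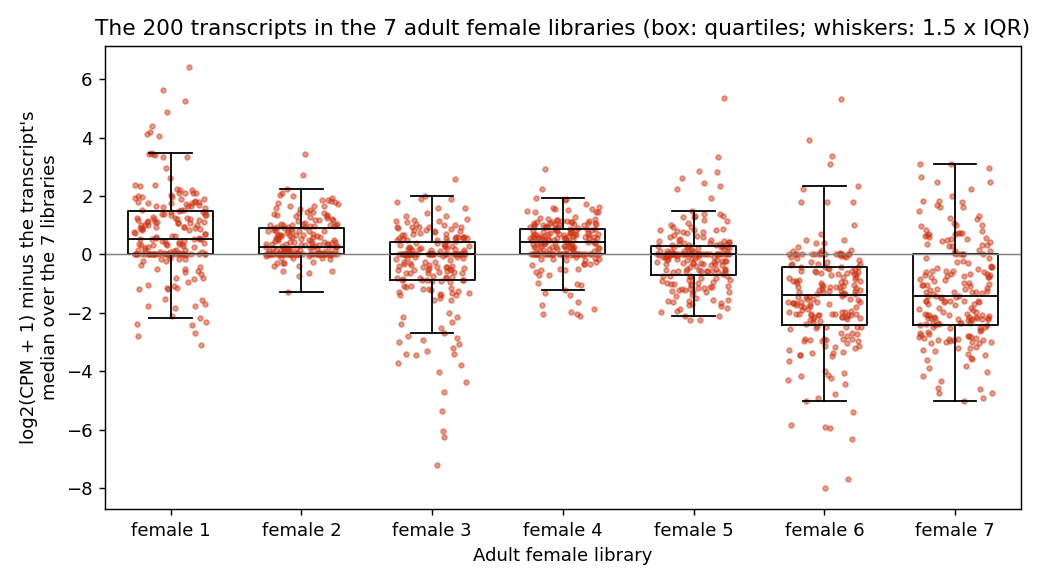
Each point is one of the 200 transcripts in 1 of the 7 adult female libraries, as log2(CPM + 1) minus the median of that transcript over the 7, with boxes at the quartiles. Replicates 6 and 7 are centred below the others, and single transcripts depart by up to about 8 on this scale.

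Each female library was also read with a list chosen without it. When the 200 were chosen again without a female library and read in that library, at least 165 of them stood at 10 CPM or more in it. Between 170 and 196 stood above every library outside female, which between 0.864 and 1.62% of all 45378 transcripts did in the same libraries. The outside libraries are those that chose each list, so nothing is read from this difference. Both counts were lowest in replicate 7. The median difference to the highest other stage mean was from 4.15, in replicate 6, to 6.34, in replicate 1, on the log2(CPM + 1) scale. The 200 chosen in this way held 2.86% of the counts of replicate 6 and 25.8% of those of replicate 1.

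Some members varied closely together. Over the 7 female libraries, Pearson correlations of log2(CPM + 1) between members had a median of 0.414 over the 19900 pairs, with 305 pairs above 0.95 and 887 below -0.5. These are descriptions from 7 libraries that every pair shares. No such counts are given for pairs of other transcripts, so they are not read as particular to the members. The last pair of sets described below was chosen after its values were seen. Whether sets are near-identical gene copies, between which reads can be split, cannot be read from the files, so the members of a set are uncertain as separate measurements.

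The transcripts with the most counts formed such a pair. Mi_28065.1 had 59279, 22190, 12706, 31140, 24551, 118 and 27059 CPM in female replicates 1 to 7, and Mi_01157.1 had 49533, 15773, 8381, 24884, 20989, 80.8 and 22874 CPM (r = 0.999). Both stood far below their level in the other 6 females in replicate 6. In the other 6 animals the pair together held between 2.11 and 10.9% of all counts, against 0.0199% in replicate 6. In J4_female they parted, with Mi_28065.1 at 0 in 4 of 8 libraries and at most 6.73 CPM, and Mi_01157.1 in all 8, between 2.21 and 17.8 CPM.

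Mi_03801.1 and Mi_19673.1 ran from 1990 to 19559 CPM and from 2629 to 18183 CPM in female (r = 0.983). Their lowest level was also in replicate 6, within 10-fold of the highest. In J4 they were highest in replicate 6, at 340 and 279 CPM, and in J4_female in replicate 5, at 61.6 and 59.0 CPM. Both also had counts in other libraries of these stages, none above 6.29 CPM. In pre_J2 replicate 2 Mi_19673.1 was at 45.1 CPM and Mi_03801.1 at 0.

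Mi_40617.1, Mi_23393.1 and Mi_21607.1 had pair correlations of 0.995 or more. Mi_40617.1 was at 1619, 1644, 2386, 3316, 548, 19.3 and 300.4 CPM in replicates 1 to 7. All 3 were lowest in replicate 6 and next lowest in replicate 7.

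Mi_41172.1, Mi_41173.1, Mi_41174.1 and Mi_41175.1 have consecutive numbers and stood high in replicate 1 only. Mi_41174.1 was at 2778 CPM there and between 10.9 and 115 CPM in the other 6 females. Mi_41173.1 was at 844 CPM against 3.11 to 28.4 CPM. The 4 also stood together in J4 replicate 6, at 58.1, 29.2, 39.5 and 52.0 CPM, where the other J4 libraries were at most 6.26 CPM. Mi_41173.1 and Mi_41174.1 had the highest coefficients of variation of the 200.

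**Figure D5:**
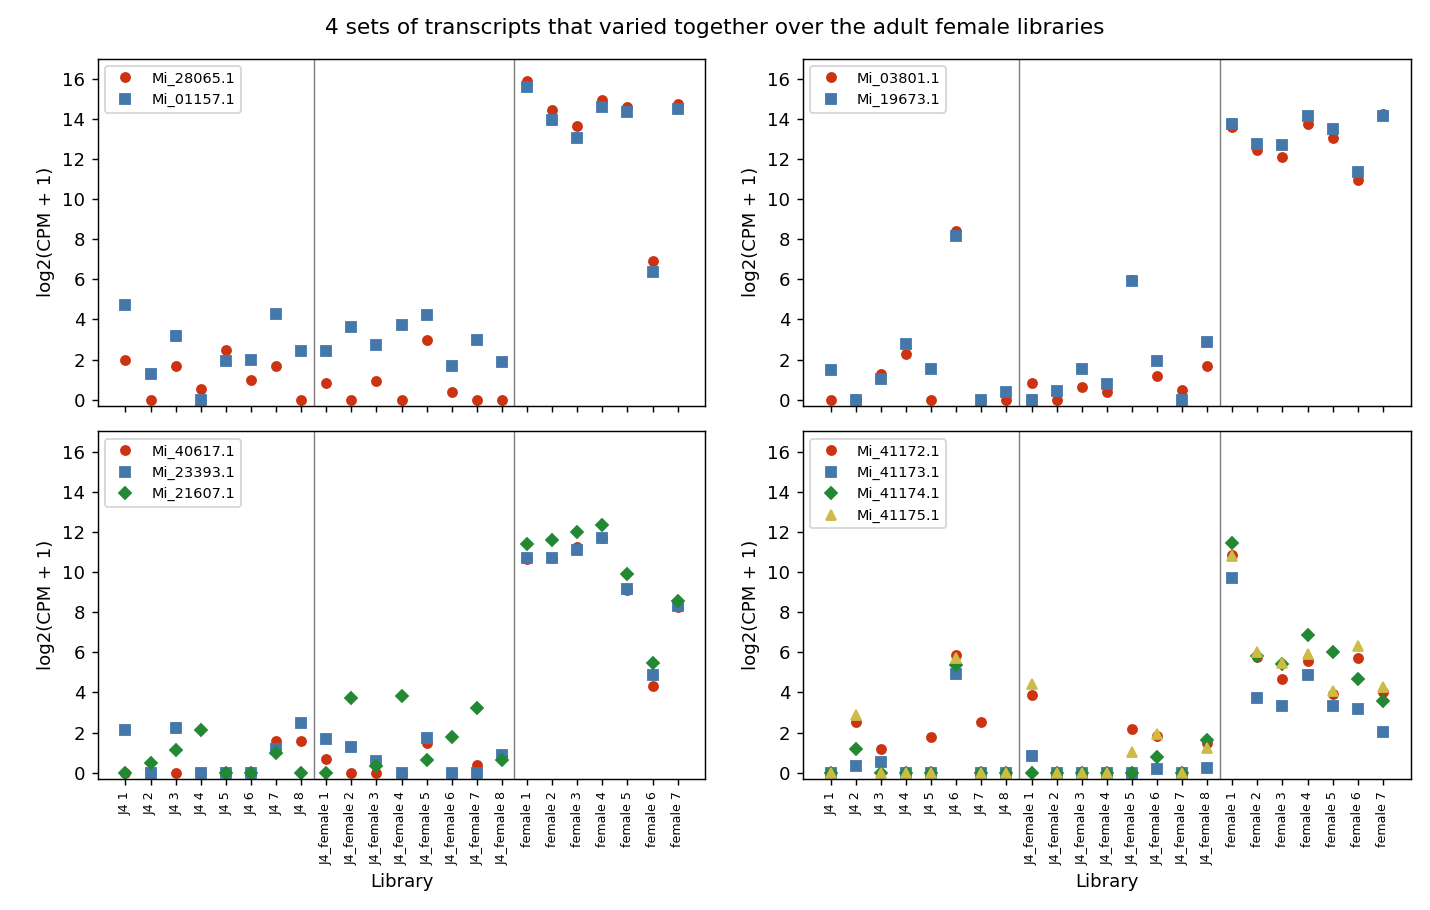
Log2(CPM + 1) of 4 sets of members in the 8 J4, 8 J4_female and 7 female libraries, 1 point per transcript and library, with grey lines between stages. In female the members of a set move together, the first pair drops in replicate 6, and the second pair and the last set stand out in J4 replicate 6.

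Some members have consecutive identifier numbers. Of the 200, 58 had another member with the next or the previous number, in 24 runs, of which 18 had 2 members, 4 had 3, and 2 were longer, with 6 and 4. The list makes up 0.461% of the single-transcript genes. The longest run went from Mi_33444.1 to Mi_33449.1. The 34 pairs with consecutive numbers had a median correlation of 0.823 over the female libraries, from 0.0978 to 0.986, beside 0.414 for all pairs. The sources used here do not say whether numbering follows position in the genome.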

How the data were processed

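Single animals were sequenced after low-input amplification, 75 libraries in 8 stages. The tools HISAT2 2.2.1 and StringTie 2.2.1 are listed in the submitters' processing notes. For the genome build, the annotation, strand and near-identical copies, the authors' choices were not given in the sources used here. The values the authors deposited are raw counts per transcript, in a full and a filtered table, and each column is named by a library title. Groups and replicate numbers come from the titles. Nothing in the labels gives a batch, and p-values measure the spread between single animals. Libraries of the same stage all differed by more than sampling noise, with a chi-square per degree of freedom of at least 45.9.

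The members and the lists were chosen with earlier results of these data known. From the counts, CPM over the library total was computed in Python 3.11.15, and stages were compared with edgeR 4.0.16 in R 4.3.3 (filterByExpr, TMM, robust quasi-likelihood test, Benjamini-Hochberg adjustment over all transcripts tested), fitted on the libraries of the stages compared. The standard error of a log2 fold change is its size divided by the root of F. A fold against a stage at 0 uses a floor of 3 counts over that stage. Smart-seq2 has no molecular identifiers, so intervals and floors cover counting error only; Wilson intervals of a library's share were at most 0.0263 percentage points to each side. Both the rule and the tests were run on simulated counts. The rule recovered 200 of 200 planted transcripts, which were set higher in female than many members stand. All other simulated transcripts had no difference between stages, so the planted ones had no rivals. Their recovery therefore does not show how well the rule ranks real transcripts. Of 4-fold changes the tests recovered 36% in J4_moulting against J4 and 1% in J4_female against J4. They recovered 21% in J4_female against J4_moulting and 12% in male against J4_moulting. For 16-fold changes the values were 70, 49, 67 and 52% in the same order. The alternatives included DESeq2 1.42.0, limma-voom 3.58.1 with weights per sample, other scalings and filters, pseudocounts, the filtered table, a replicate block and left-out libraries.

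Named transcripts follow a rule: the 2 of highest score, of highest mean in each stage, of highest and lowest variation in female, of fewest libraries outside female, those at the edge of the list, and the 2 of smallest p per direction in each test. For the stages J3, par_J2 and J4_moulting the rule's transcripts are not all printed, and sets of correlated members were added after their values were seen. Lists of yolk, eggshell, cuticle, sperm and other marker genes needed gene names and were not used here.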

Additional observations from a re-analysis of the deposited data

Results flagged for a closer look

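Within groups of 4 to 10 libraries, a library was singled out where its distance to the nearest other one passed a set part of the range. For normally distributed values about 1 in 20 groups would pass that limit. CPM are skewed, and some groups were picked for a high library or high variation, so this rate does not apply here. Of 48 groups examined 19 passed, and nothing is read from that number. Many of the 19 are for transcripts that vary together and so are not separate events. No explanation of them was tested.

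The share of counts of the 200 was far above the rest in J4 replicate 6, at 0.139%, the next J4 library being at 0.0621%, and in male replicate 3, at 0.0291% with the next at 0.0165%.

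J4 replicate 6 stood apart in 6 single members: Mi_03801.1 at 340 CPM, Mi_19673.1 at 279, Mi_41172.1 at 58.1, Mi_41173.1 at 29.2, Mi_41174.1 at 39.5 and Mi_41175.1 at 52.0 CPM. J4_female replicate 5 stood apart in Mi_03801.1 at 61.6 CPM, Mi_19673.1 at 59.0, Mi_27569.1 at 46.96 and Mi_28065.1 at 6.73 CPM.

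Female replicate 1 stood apart in Mi_41172.1 at 1821 CPM, Mi_41173.1 at 844, Mi_41174.1 at 2778, Mi_41175.1 at 1759 and Mi_33446.1 at 1915 CPM. Female replicate 4 stood apart in Mi_03749.1, just outside the list, at 40.1 CPM, and male replicate 7 in Mi_11131.1 at 51.4 CPM.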

How the results depend on the processing

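The choice of the 200 changed little with the scale, depth or libraries: between 185 and 200 were chosen again under pseudocounts of 0.1 and 10, TMM and DESeq2 scaling, thinning to 3000000 counts, summed genes, stage medians and left-out libraries. The exception was the deposited filtered table, where 7 were. The mean share in female was 13.3%, and 11.2 to 15.1% without 1 female library, but 28.7% of TMM-scaled and 27.98% of DESeq2-scaled library sizes and 3.33% in the filtered table. Members without overlap were 143 to 156 without 1 female library, with no share over all transcripts given beside them.

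Counts of members called were less stable. In J4_moulting against J4 the median log2 fold change of all transcripts was -0.04 with TMM, -0.18 with DESeq2 size factors and -0.29 with total counts, and 0 members were called higher with each. In the settings total counts alone, no low-count filter, the filter over all libraries, all 75 libraries fitted together and DESeq2, J4_moulting against J4 (3 called) gave 5, 27, 28, 35 and 5 members, of which 5, 27, 28, 34 and 3 were lower, against 5.48, 3.68, 3.73, 2.80 and 6.55% of all transcripts lower. J4 replicate 6 left out gave 1 to 13, and J4 replicates 7 and 8 left out 24 with the wider filter, both chosen after seeing the data. In the same settings J4_female against J4_moulting (1 called) gave 2, 24, 24, 35 and 5, of which 2, 23, 23, 33 and 2 were higher, against 2.15, 2.38, 2.58, 3.85 and 4.28% of all higher. By DESeq2 3 were lower, 3.57% against 5.80% of all. Without 1 J4_female library the narrower filter gave 0 to 3. Male against J4_moulting (16 called) gave 56, 55, 61 and 26 in the last 4 of them, of which 40, 40, 41 and 23 were lower, against 19.6, 20.2, 19.4 and 27.3% of all lower. Mi_03801.1 in J4_moulting against J4 turned to a log2 fold change of 0.31 by DESeq2, 0.77 by limma-voom, 0.41 with the replicate block, 0.20 without J4 replicate 6 and 0.26 without it under the wider filter. Apart from the settings without J4 replicate 6, the cause was not tested.

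Same-numbered libraries did not deviate together on average (mean r of 0.0456 or less in every comparison). Single pairs ran from -0.260 to 0.313 in J4_female against J4_moulting. A mean over so few pairs cannot settle whether some numbers pair the animals. With the replicate block 1 member was called in J4_moulting against J4, higher, 1.33% of those tested against 2.00% of all transcripts. In J4_female against J4 0 members and 0% of all were called. In J4_female against J4_moulting 1 was called, lower, 1.19% against 2.18% of all. In male against J4_moulting 28 were called, all lower, 37.3% of the members tested against 17.8% of all transcripts. Mi_09291.1 and Mi_04192.1 were not called with the block there, at log2 fold changes of 6.005 and 3.04. The median of the members in J4_female against J4_moulting was -1.60 with the block, against -0.66 over all.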
